A study of Mus musculus with 10 samples.

Results

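The transcription factors Satb1, Lef1, Bach2, Foxp1, Id3 and Myb were followed across subsets of regulatory T cells (Tregs) of the mouse spleen. They are 6 of the 19938 genes measured, chosen by symbol as factors of naive and central T cells. Each had 1 named probe set on the array: 10451763 for Satb1, 10496091 for Lef1, 10503695 for Bach2, 10546661 for Foxp1, 10509163 for Id3 and 10368199 for Myb. All cells came from C57BL/6 females of 9 to 14 weeks and were sorted as CD4+ cells with a red fluorescent reporter at Foxp3, the factor that defines Tregs. FR1 cells were CD62Lhi CD69- Klrg1- (2 arrays) and FR2 cells were CD62Llo CD69- Klrg1- (2 arrays). FR3 cells were CD62Llo CD69+ and either Klrg1- (4 arrays) or Klrg1+ (1 array). CD62L is the lymph node homing receptor, CD69 an activation marker and Klrg1 a receptor of differentiated lymphocytes. Arrays of a group are labelled as biological replicates, with any pooling of animals not given in the sources used here.

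Central Tregs keep CD62L, circulate through lymphoid organs and share much of their programme with naive T cells, whereas effector Tregs lose CD62L and enter tissues. Satb1 folds chromatin into loops and is needed for the first Treg enhancers in the thymus, and Foxp3 represses it in mature Tregs. Lef1 binds DNA with the same box as Tcf7 and can recruit beta-catenin. Bach2 is a repressor that holds back effector differentiation, in part by repressing Prdm1, and Foxp1 is a relative of Foxp3 that keeps naive T cells quiescent. Id3 binds no DNA and blocks the E proteins, which do, and Myb is an activator of lymphocyte progenitors and of Treg differentiation.

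Values are RMA log2 intensities, on which 1 unit is a doubling. The arrays fell into 2 sets that cut across the groups. The first comprised all arrays of FR1 and FR2 with replicates 1 and 2 of FR3 Klrg1-, which correlated at 0.981 to 0.992. The second comprised replicates 3 and 4 of FR3 Klrg1- with the FR3 Klrg1+ array (0.972 to 0.982), and arrays of different sets correlated at 0.901 to 0.921. Groups were therefore compared within a set, by a limma fit with the array set as a term. A gene was called at a Benjamini-Hochberg adjusted p under 0.05 over all genes. The mean level of 9 T cell and Treg markers lay between 11.23 and 11.65 on the arrays with a group. That of 9 B cell markers lay between 5.36 and 5.55, and the lists for NK cells, macrophages, dendritic cells, plasma cells, erythroid cells and neutrophils all stayed between 4.66 and 6.12. The 2 CD8 T cell markers lay higher, between 6.57 and 7.19. Within these lists some single markers were called between groups. In these bulk samples fewer cells that express a factor and less RNA of it per cell cannot be told apart.

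Satb1 and Lef1 fell at each gate of the first set. Satb1 stood at 11.99 on both FR1 arrays, at 10.94 and 11.01 in FR2, and at 9.70 and 9.79 in FR3 Klrg1-. Each step was many times the spread between replicates within the first set. FR3 Klrg1- replicates 3 and 4, in the second set, stood lower, at 9.21 and 9.10. Lef1 stood at 11.22 and 11.31 in FR1, at 10.81 and 10.70 in FR2, and at 10.00 on both FR3 Klrg1- arrays. It too fell at both gates, by smaller steps than Satb1.

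Bach2 and Foxp1 were also highest in FR1 and lowest in FR3 Klrg1-. Bach2 stood at 9.62 and 9.46 in FR1, at 8.65 and 8.44 in FR2, and at 8.25 and 8.26 in FR3 Klrg1-. The drop lay mainly between FR1 and FR2: FR2 already held 77.2% of the difference between FR1 and FR3 Klrg1-, against 45.2% for Satb1, 40.3% for Lef1 and 44.7% for Foxp1. These shares are point values from 2 arrays a group. Foxp1 stood at 10.45 and 10.43 in FR1, at 10.13 and 10.08 in FR2, and at 9.64 and 9.76 in FR3 Klrg1-. From FR1 to FR3 Klrg1-, Foxp1 changed least of these 4 factors.

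Id3 and Myb had another order, with the lowest values in FR2. Id3 stood at 7.98 and 7.83 in FR1, at 7.21 and 7.33 in FR2, and at 7.69 and 7.35 in FR3 Klrg1-. FR2 and FR3 Klrg1- nearly met, at 7.33 and 7.35. Myb stood at 8.19 and 8.28 in FR1, at 7.60 and 7.71 in FR2, and at 8.06 and 8.15 in FR3 Klrg1-. FR1 and FR3 Klrg1- were neighbours for Myb and did not differ by the test.

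The second set held the only FR3 Klrg1+ array, beside replicates 3 and 4 of FR3 Klrg1-. Satb1 stood at 9.21 and 9.10 in FR3 Klrg1- replicates 3 and 4 and at 9.81 in FR3 Klrg1+. Foxp1 stood at 9.01 and 8.79 against 7.96, and Id3 at 8.16 and 7.68 against 6.47. Myb stood at 7.56 and 7.83 against 6.84, Bach2 at 7.06 and 7.54 against 6.70, and Lef1 at 8.89 and 9.14 against 8.88. Lef1 in FR3 Klrg1+ was thus nearly level with the lower FR3 Klrg1- array. Among the genes of an array, Id3 ranked lowest of the factors, at percentile 51.9 in FR3 Klrg1+, so every factor lay above the median gene on every array with a group.

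**Figure D1:**
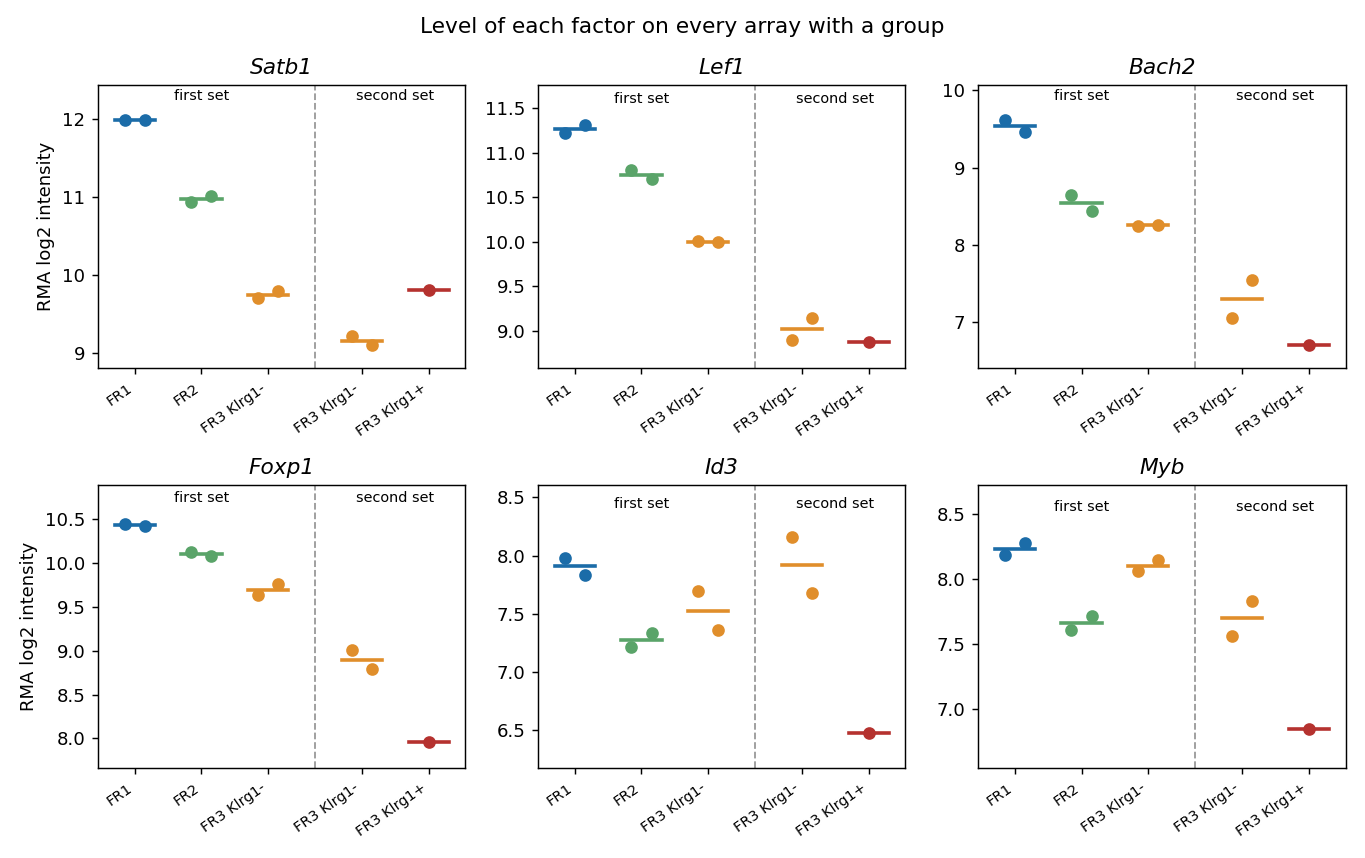
RMA log2 intensity of each factor on the 9 arrays with a group: points are arrays, bars are group means, and the dashed line parts the 2 array sets. Within the first set, Satb1 descends from 11.99 in FR1 to 9.70 and 9.79 in FR3 Klrg1-, whereas Id3 and Myb are lowest in FR2. Neither Id3 nor Myb was called between FR2 and FR3 Klrg1-. Within the second set, Satb1 is at 9.21 and 9.10 in FR3 Klrg1- and at 9.81 in FR3 Klrg1+.

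The promoters of Satb1 and Lef1, which fell at each gate of the first set, and of Id3 and Myb are shown. Id3 and Myb had their lowest values of that set in FR2, though neither passed between FR2 and FR3 Klrg1-. The windows are the 250 bases before the most upstream start that RefSeq lists for each gene (GRCm38.p6). They lie at chr17:51833291-51833540 (minus strand), chr3:131110047-131110296 (plus), chr4:136143572-136143821 (plus) and chr10:21160985-21161234 (minus). Capitals mark matches, on either strand, to 5 motifs: CTTTGAT of Lef1 and Tcf7, CAGNTG of the E proteins that Id3 blocks, TGTTTAC of forkhead factors, TAACNG of Myb and TGANTCA of Bach and AP-1 factors.
Satb1: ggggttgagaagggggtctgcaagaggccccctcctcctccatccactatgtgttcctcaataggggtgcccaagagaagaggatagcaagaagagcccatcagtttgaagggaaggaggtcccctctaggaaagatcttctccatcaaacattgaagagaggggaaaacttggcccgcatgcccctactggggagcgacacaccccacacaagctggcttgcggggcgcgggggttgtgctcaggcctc
Lef1: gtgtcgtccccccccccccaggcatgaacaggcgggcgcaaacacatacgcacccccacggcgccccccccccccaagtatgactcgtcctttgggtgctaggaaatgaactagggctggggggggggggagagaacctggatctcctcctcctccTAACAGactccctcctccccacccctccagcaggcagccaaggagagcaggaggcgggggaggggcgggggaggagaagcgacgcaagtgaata
Id3: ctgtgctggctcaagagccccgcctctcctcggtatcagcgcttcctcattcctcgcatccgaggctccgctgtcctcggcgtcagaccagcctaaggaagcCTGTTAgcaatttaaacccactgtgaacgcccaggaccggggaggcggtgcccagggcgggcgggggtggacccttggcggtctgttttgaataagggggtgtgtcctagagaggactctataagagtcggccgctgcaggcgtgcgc
Myb: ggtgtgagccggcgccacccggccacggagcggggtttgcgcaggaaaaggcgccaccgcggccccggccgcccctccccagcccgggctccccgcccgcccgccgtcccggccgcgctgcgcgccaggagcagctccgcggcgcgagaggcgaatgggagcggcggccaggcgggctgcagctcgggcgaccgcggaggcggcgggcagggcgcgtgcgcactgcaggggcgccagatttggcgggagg
The Lef1 window held 1 Myb motif, TAACAG, 94 to 89 bases before the start, and the Id3 window held 1, CTGTTA on the reverse strand, 148 to 143 bases before it. The Satb1 and Myb windows held no match to the 5 motifs. For Foxp1 the most upstream start listed lies inside the gene, and its window held 1 E protein motif, CAGTTG. RefSeq lists 5 starts for Satb1, 4 for Lef1 and 3 for Foxp1. Some windows of the later starts of each gene held E protein or Myb motifs, also for Satb1, and are not shown. The only start listed for Bach2 also lies inside its gene, and its window is not used here. No matches overlapped. Of all 32851 RefSeq windows of this length, 19.8% held TAACNG, 44.8% CAGNTG, 6.75% TGANTCA, 3.21% CTTTGAT and 3.17% TGTTTAC. The G and C content of the 4 windows was 58.0% for Satb1, 66.4% for Lef1, 62.8% for Id3 and 81.2% for Myb.

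FR2 was first set against FR1, to see what changes with the loss of CD62L among CD69- Klrg1- Tregs. Satb1 fell by 1.01 ± 0.13 (log2 fold change ± SE, n = 2 and 2, limma adjusted p = 0.000182), a 2.02-fold lower level. Bach2 fell by 0.99 ± 0.16 (adjusted p = 0.00188), and Id3 (-0.64 ± 0.17), Myb (-0.57 ± 0.14) and Lef1 (-0.51 ± 0.13) fell with adjusted p of 0.0447, 0.0248 and 0.0418. Foxp1 was at -0.33 ± 0.13 and did not pass (adjusted p = 0.194). Thus 5 of 6 factors were called lower, where 2.3% of all genes were, and 0 of 6 higher, where 1.96% were. The median over the 6 was -0.60 against 0.02 over all genes. Lef1, Id3 and Myb lost their call without any 1 array of FR1 or FR2 (adjusted p from 0.0782 to 0.336), and Lef1 also without FR3 Klrg1- replicate 1 or 2 (0.0731 for each), while Satb1 and Bach2 kept it without each array in turn. Quantile normalization left 3 of 6 called, without Lef1 (adjusted p = 0.0911) and Id3 (0.0817). Testing every row of the table left only Satb1, with Bach2 at 0.0598. Without the array set term the fold changes were the same and 0 of 6 were called, beside 0.261% of all genes, with an adjusted p of 0.332 for Satb1.

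The comparison of FR3 Klrg1- with FR2 asks what goes with the gain of CD69 among CD62Llo Klrg1- Tregs. CD69 here is the sort gate, and Cd69 RNA did not pass between these groups (0.07 ± 0.18, limma adjusted p = 0.918). Satb1 fell further, by 1.23 ± 0.13 (n = 2 and 2 within the set, limma adjusted p = 3.77e-05), and Lef1 fell by 0.75 ± 0.13 (0.00337). The other 4 did not pass: Foxp1 was at -0.41 ± 0.13 (adjusted p = 0.102), Bach2 at -0.29 ± 0.16 (0.42), Id3 at 0.25 ± 0.17 (0.547) and Myb at 0.45 ± 0.14 (0.0816). Here 2 of 6 were called lower, beside 1.94% of all genes, and 0 of 6 higher, beside 2.81%. The 95% interval of Bach2 (-0.63 to 0.05) and that of Id3 (-0.10 to 0.61) both include 0. Myb was called higher in the first set alone (adjusted p = 0.0381), and Lef1 lost its call without FR2 replicate 1 (-0.70, adjusted p = 0.0627). Without the array set term and with all 4 FR3 Klrg1- arrays, Satb1 was called (-1.52, adjusted p = 0.0388), beside 0.14% of all genes lower. Lef1 (-1.25, 0.213), Foxp1 (-0.81, 0.321) and Bach2 (-0.77, 0.428) were then not called.

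Across both gates, from FR1 to FR3 Klrg1-, Satb1 fell by 2.24 ± 0.13 (n = 2 and 2 within the set, limma adjusted p = 2.83e-08), a 4.73-fold lower level and the rank of 5 from the lowest among all 19938 fold changes. Bach2 fell by 1.28 ± 0.16 (6.3e-05), Lef1 by 1.26 ± 0.13 (1.31e-05) and Foxp1 by 0.74 ± 0.13 (0.00158). Id3 (-0.38 ± 0.17, adjusted p = 0.227) and Myb (-0.13 ± 0.14, 0.731) did not pass. So 4 of 6 were called lower, beside 3.79% of all genes, and the median over the 6 was -1.0 against 0.02 over all genes. These 3 comparisons share their arrays, so they are not independent of each other. Without the array set term and with all 4 FR3 Klrg1- arrays, Satb1 (-2.54, adjusted p = 0.00126), Lef1 (-1.76, 0.037) and Bach2 (-1.76, 0.0396) were still called, beside 1.09% of all genes lower, and Foxp1 (-1.14, 0.0936) was not. The mean level of the 2 CD8 T cell markers was 6.99 to 7.19 in FR1 and 6.62 to 6.68 in FR3 Klrg1- of the first set, with Cd8b1 called lower (-0.55 ± 0.13). Its part in the fall of the 4 factors was not tested. Klrg1 RNA rose by 1.27 ± 0.19 from FR1 to FR3 Klrg1-, although both were sorted as Klrg1-.

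The comparison of FR3 Klrg1+ with FR3 Klrg1- in the second set asks what goes with Klrg1 among CD62Llo CD69+ Tregs. Id3 fell by 1.45 ± 0.20 (n = 1 and 2, limma adjusted p = 0.00103), a 2.73-fold lower level and the rank of 27 from the lowest among all genes. Foxp1 fell by 0.94 ± 0.16 (0.00425) and Myb by 0.86 ± 0.17 (0.00907). Satb1 rose by 0.65 ± 0.15 (0.0254). Bach2 (-0.60 ± 0.19, adjusted p = 0.0932) and Lef1 (-0.14 ± 0.16, 0.69) did not pass. Thus 3 of 6 were called lower, beside 2.82% of all genes, and 1 of 6 higher, beside 2.14%. The single Klrg1+ array has no replicate and was assumed to vary like the other groups. In the second set alone Satb1 was not called, and with every row of the table tested Satb1 and Myb were not called. Without FR3 Klrg1- replicate 3, which leaves 1 array against 1 in this set, Bach2 was at -0.84. Without the array set term 0 of 6 were called, beside 0.11% of all genes (adjusted p from 0.185 to 0.673). The mean of 10 macrophage and monocyte markers was 5.41 in FR3 Klrg1+ and 5.66 to 5.84 in FR3 Klrg1- of this set, and that of 6 NK cell markers 4.98 and 5.24 to 5.48. Their part in these differences was not tested.

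**Figure D2:**
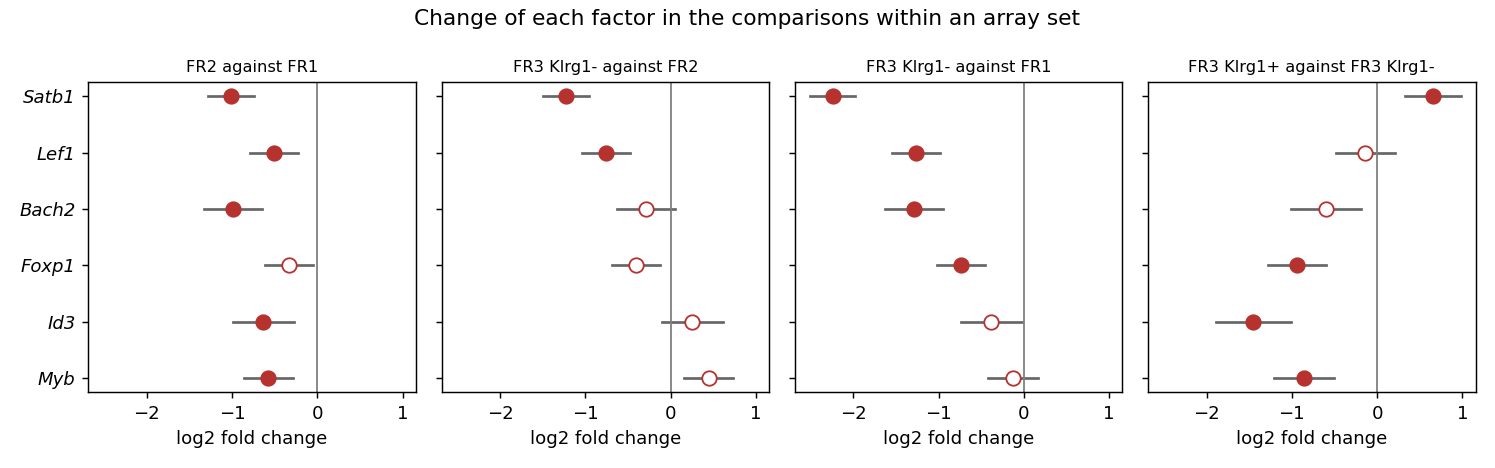
Log2 fold change of each factor in the 4 comparisons, with its 95% interval from the limma fit with the array set as a term, filled where the adjusted p was under 0.05. Satb1 lies left of 0 in the first 3 panels and at 0.65 in the last, and Id3 has its largest change, -1.45, with Klrg1.

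The array sets themselves differed for these factors inside 1 group. In FR3 Klrg1-, the first set was above the second by 0.99 ± 0.13 for Lef1, 0.95 ± 0.16 for Bach2, 0.80 ± 0.13 for Foxp1, 0.59 ± 0.13 for Satb1 and 0.41 ± 0.14 for Myb. All 5 were called higher by limma, where 19.3% of all genes were, and Id3 (-0.40 ± 0.17, adjusted p = 0.0767) was not called. The size of these differences is that of the steps between gates, so levels of FR3 Klrg1+ were not set against FR1 or FR2. Foxp3 was also higher in the first set, at 10.70 and 10.65 in FR3 Klrg1- against 9.63 and 9.95. Within the first set Foxp3 did not pass, at -0.12 ± 0.15 in FR3 Klrg1- against FR1.

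Over the 9 arrays, each centred on its set, Satb1 and Lef1 had the most alike profiles of the 15 pairs of factors (Pearson r = 0.93), followed by Lef1 with Bach2 (0.88) and Id3 with Myb (0.82). Satb1 had no likeness to Id3 (0.06) or Myb (-0.08). Bach2 and Foxp1 stood between, at 0.51 to 0.88 with every other factor. The arrays share their groups and their set, so these values only describe the profiles.

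**Figure D3:**
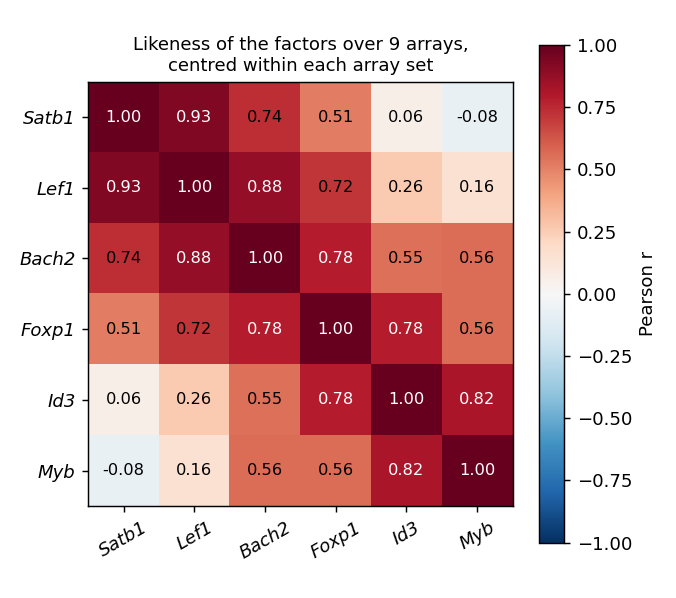
Pearson r between the profiles of the 6 factors over the 9 arrays with a group, after each gene was centred within each array set; red is positive and blue negative. Satb1 and Lef1 (0.93) and Id3 and Myb (0.82) form the corners with high values, and Satb1 against Myb is at -0.08.

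Other genes were set beside the factors by the same measure, among 809 genes above the median level that spanned at least 1 log2 unit. Most like Satb1 were Vipr1, a receptor of vasoactive intestinal peptide (r = 0.997), Rasgrp2, an activator of Rap1 (0.979), and Scml4 (0.979). Rasgrp2 fell by 2.32 from FR1 to FR3 Klrg1-, close to Satb1. Most like Lef1 were the IL-17 receptor chain Il17ra (0.987), Aven (0.979) and Arid5a (0.979). Most like Bach2 were Afap1 (0.978), Ecm1 (0.967) and Twf2 (0.956). The neighbours of Foxp1 included the actin-associated genes Pdlim1 (0.986) and Actn1 (0.984), and Tagap (0.963).

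Id3 was followed by Dzip1 (r = 0.97), Taf1a (0.959) and Arhgap20 (0.955). Most like Myb were Ldha, a lactate dehydrogenase subunit (0.954), the growth factor-responsive regulator Myc (0.936) and Atp5k (0.926). Myc was at -0.69 in FR2 against FR1 (adjusted p = 0.0508) and at 0.56 in FR3 Klrg1- against FR2 (0.121), and passed in neither. The mean profile of the 6 factors was most like that of Treml2 (0.992), the adhesion molecule Pecam1 (0.991), Mtss1 (0.991), Carns1 (0.981) and Slfn1 (0.981). It ran most opposite to the inhibitory receptor Lilrb4a (-0.991), Cntln (-0.984), the elongation factor Ell2 (-0.982), Adap1 (-0.98) and Lamc1 (-0.98).

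Other factors of naive and quiescent T cells fell in part. Of 23 measured, 4 fell and 0 rose in FR2 against FR1, 5 fell and 2 rose in FR3 Klrg1- against FR2, and 7 fell and 3 rose in FR3 Klrg1- against FR1. Of all genes, 2.3%, 1.94% and 3.79% fell in these comparisons and 1.96%, 2.81% and 4.39% rose. The medians over the 23 were -0.08, -0.16 and -0.29. From FR1 to FR3 Klrg1-, Klf2, an activator of the egress receptor S1pr1, fell by 1.94 ± 0.15, Klf7 fell by 1.63 ± 0.13, Sox4 by 1.26 ± 0.13 and Tsc22d3, a glucocorticoid-induced quiescence gene, by 1.12 ± 0.18. Klf4 rose by 1.03 ± 0.13 and Bcl6, the transcriptional repressor that follicular T cells need, rose by 1.02 ± 0.17. Foxo1, an activator of Klf2, was at -0.41 ± 0.13 (adjusted p = 0.0645), Ets1 at -0.08 ± 0.12 and Runx1 at 0.07 ± 0.13, and none of these passed. With Klrg1, Bcl6 fell by 0.78 ± 0.21 and no other of the 23 was called. Of all genes, 2.82% fell and 2.14% rose there, so this count lies near the background.

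**Figure D4:**
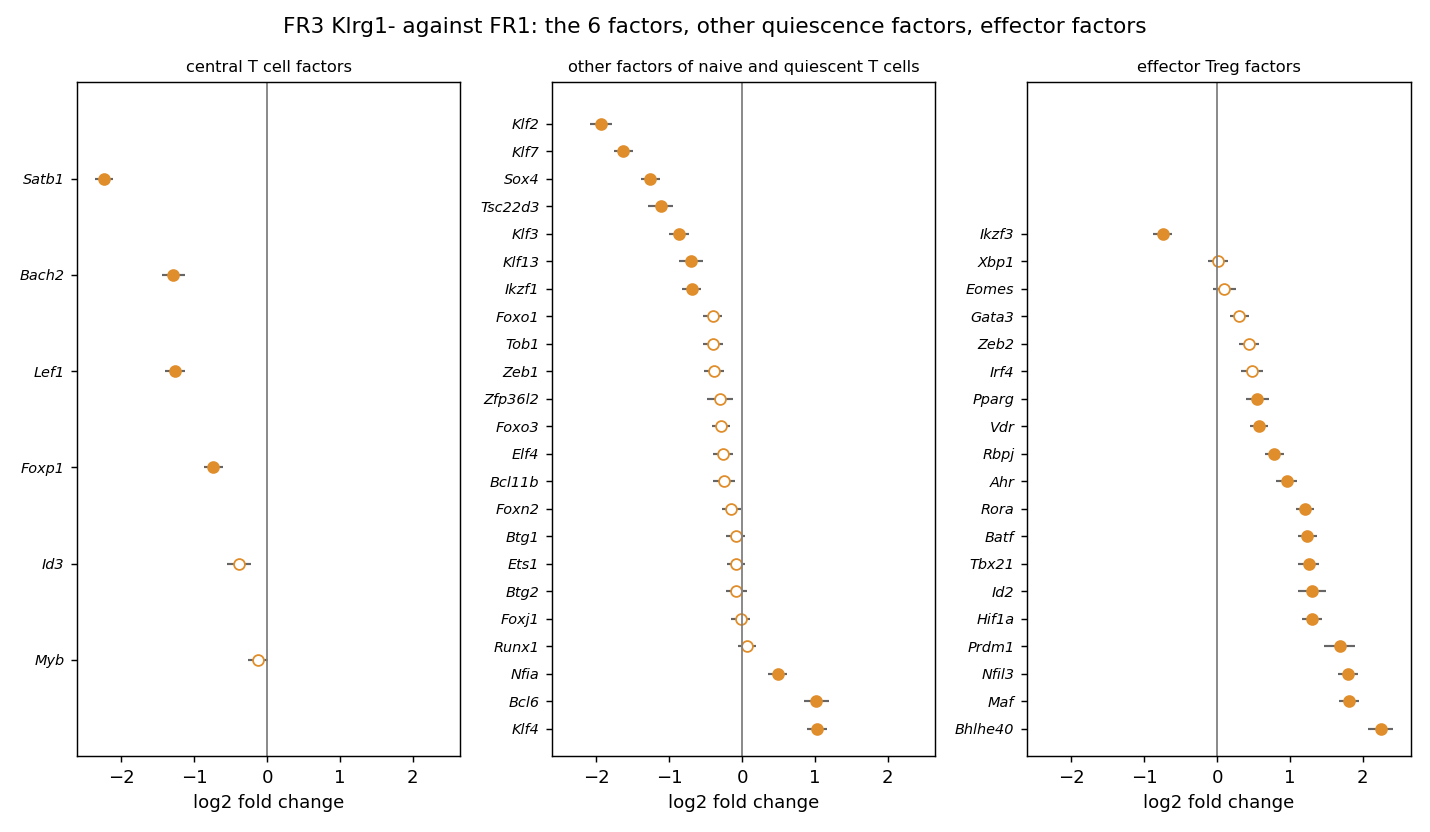
Log2 fold change of FR3 Klrg1- against FR1, with its SE, for the 6 factors, 23 other factors of naive and quiescent T cells and 19 effector Treg factors, filled where called by limma. The 4 called central factors lie between -2.24 and -0.74, and 13 of the effector factors are called higher, up to 2.25 for Bhlhe40.

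The relatives and partners of the 6 factors mostly did not pass. Of 24 measured, 1 fell in FR2 against FR1, 1 fell in FR3 Klrg1- against FR2, 2 fell and 1 rose in FR3 Klrg1- against FR1, and 1 fell and 1 rose with Klrg1. Of all genes, 2.3%, 1.94%, 3.79% and 2.82% fell in these comparisons, so counts of 1 or 2 among 24 lie near the background. Id2, which blocks E proteins as Id3 does, rose by 1.30 ± 0.19 from FR1 to FR3 Klrg1- and by 0.84 ± 0.23 with Klrg1. It stood at 8.53 and 9.09 in FR1, 9.34 and 9.64 in FR2, 10.13 and 10.10 in FR3 Klrg1- of the first set, 9.22 and 9.63 in the second, and 10.27 in FR3 Klrg1+. With Klrg1, Id2 and Id3 thus moved in opposite directions, and the E protein gene Tcf4 fell by 0.78 ± 0.17. The E protein genes Tcf3 (0.33 ± 0.15) and Tcf12 (-0.36 ± 0.16) did not pass. Mafk, a small partner of Bach proteins, fell by 0.58 ± 0.15 in FR2 and by 0.52 ± 0.15 in FR3 Klrg1-, both against FR1. Bcl9l, a beta-catenin co-factor, fell by 0.72 ± 0.14 in FR3 Klrg1- against FR1. Foxp4 (0.42 ± 0.14), Bach1 (-0.44 ± 0.15) and Ctnnb1 (0.14 ± 0.14) did not pass there.

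Effector Treg factors moved the other way. Of 19 measured, 8 rose and 0 fell in FR2 against FR1, 5 rose and 0 fell in FR3 Klrg1- against FR2, 13 rose and 1 fell in FR3 Klrg1- against FR1, and 7 rose and 1 fell with Klrg1, where 1.96%, 2.81%, 4.39% and 2.14% of all genes were called higher. From FR1 to FR3 Klrg1-, Bhlhe40 rose by 2.25 ± 0.17, Maf by 1.81 ± 0.14 and Nfil3 by 1.80 ± 0.14, and Ikzf3 fell by 0.75 ± 0.14. With Klrg1, Pparg rose by 2.09 ± 0.19, Gata3 by 1.33 ± 0.17 and Ahr by 1.13 ± 0.18, and Hif1a fell by 0.82 ± 0.17.

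A few genes that textbooks give as targets of these factors were read beside them. Prdm1, the effector regulator that Bach2 represses, stood at 5.80 and 6.02 in FR1 and at 7.16 and 7.47 in FR2. It rose by 1.41 ± 0.21 there, by 1.68 ± 0.21 from FR1 to FR3 Klrg1- and by 1.27 ± 0.26 with Klrg1. With Klrg1, Prdm1 thus passed where Bach2 did not. In FR3 Klrg1- of the first set Prdm1 was at 7.16 and 8.01, and neither gene passed between FR2 and FR3 Klrg1-. Bcl2, the survival gene that Myb activates, fell by 1.23 ± 0.14 in FR2 against FR1 and by 0.69 ± 0.17 with Klrg1. Myb was also called lower in these 2 comparisons. Bcl2 also fell by 1.43 ± 0.14 from FR1 to FR3 Klrg1-, where Myb did not pass. Whether the factors act on any of these targets here was not tested.

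Cxcr5, the follicle homing receptor that E proteins induce and Id3 restrains, rose by 1.54 ± 0.15 from FR2 to FR3 Klrg1- and fell by 2.95 ± 0.18 with Klrg1. It stood at 8.90 and 9.03 in FR3 Klrg1- of the first set, at 8.19 and 8.28 in the second and at 5.28 in FR3 Klrg1+. Il7r, which Foxp1 represses, fell by 0.73 ± 0.16 from FR2 to FR3 Klrg1- and rose by 0.83 ± 0.20 with Klrg1. Axin2, a target of beta-catenin with Lef1 or Tcf7, rose by 0.66 ± 0.15 in FR2 against FR1, fell by 0.99 ± 0.15 from FR2 to FR3 Klrg1- and rose by 0.93 ± 0.18 with Klrg1. With Klrg1, Cxcr5 and Id3 thus both fell, and in FR2 against FR1 Axin2 rose where Lef1 fell. Over these 6 targets, counted with Rag1, 3 rose and 1 fell in FR2 against FR1, 1 rose and 2 fell in FR3 Klrg1- against FR2, 2 rose and 1 fell in FR3 Klrg1- against FR1, and 3 rose and 2 fell with Klrg1. Of all genes, 1.96%, 2.81%, 4.39% and 2.14% rose in these comparisons and 2.3%, 1.94%, 3.79% and 2.82% fell.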

How the data were processed

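From 20 to 50 ng RNA of sorted Tregs was amplified for Affymetrix Mouse Gene ST 1.0 arrays, per the labels' protocols. The deposited values are log2 intensities made with RMA by the authors, per the submitters' processing notes, with a joint or separate normalization of the array sets not given in the sources used here. Of 35556 probe sets, 21789 had 1 symbol in the probe table, 1621 several and 12146 were not named. The brightest probe set per symbol gave 19938 genes, with symbols updated by gene ID and no intensity filter. The number of arrays limits the precision.

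Fold changes, SE and adjusted p come from limma 3.58.1 in R 4.3.3, in 1 fit of group plus array set over 9 arrays, so a difference between groups that share a set comes from that set. The fit was tested on simulated data. The 10th array, titled FR3 with the markers of FR1, entered no comparison. Likeness was Pearson r after centring within sets, and the 3 nearest genes per factor were named, with the 5 nearest and 5 most opposite for the mean. Of each list, called genes with the largest changes were named, at most 8 per comparison. Members, array sets and lists were chosen with earlier results of these data known, and no list was given a test of its own.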

Additional observations from a re-analysis of the deposited data

How the results depend on the processing

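No factor changed direction under any of the 19 alternatives run. Many of these left the fold changes as they were and altered only the spread, the genes tested or the call rule. Under those settings a direction could not change. Without the array set term, FR2 against FR1 had 0 factors called lower and 52 genes called in all (5 and 850 with it), FR3 Klrg1- against FR2 had 1 and 55 (2 and 948), and FR3 Klrg1- against FR1 had 439 genes (1632). FR3 Klrg1+ against FR3 Klrg1- then had 0 lower, 0 higher and 22 genes (3, 1 and 989). With only the arrays of 1 set, FR2 against FR1 had 1331 genes, 1 factor (Myb) was called higher in FR3 Klrg1- against FR2, and 0 were higher with Klrg1. Array weights gave 1 higher (Myb) and 1618 genes in FR3 Klrg1- against FR2. Leaving out genes under percentile 40 gave 1401 genes in FR2 against FR1 and 1 factor higher in FR3 Klrg1- against FR2. Foxp1 was called lower in FR3 Klrg1- against FR2 with array weights (adjusted p = 0.0353), an intensity trend in the variance (0.0383) and the percentile filter (0.046). Quantile normalization gave 3 factors lower in FR2 against FR1. Testing every row gave 1 factor lower and 315 genes there, 355 genes in FR3 Klrg1- against FR2, and 0 factors higher and 511 genes with Klrg1. Requiring a log2 change of at least 1 as well left 1 factor and 158 genes in FR2 against FR1, 1 and 145 in FR3 Klrg1- against FR2, 429 genes in FR3 Klrg1- against FR1, and 1 lower, 0 higher and 212 genes with Klrg1.

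With the replicate number as a block beside the array set, 3 factors were called lower in FR2 against FR1, where Lef1 (adjusted p = 0.0601) and Id3 (0.0653) lost their calls. The deviations of same-numbered arrays correlated at 0.02 to 0.18, so the numbers were not taken as pairs. Leaving out each array in turn gave 2 to 5 factors lower and 253 to 1331 genes in FR2 against FR1, 1 to 2 lower, 0 to 1 higher and 302 to 1318 genes in FR3 Klrg1- against FR2, 910 to 2063 genes in FR3 Klrg1- against FR1 and 721 to 1553 with Klrg1. The number of genes moved by over 1.5 times, in FR2 against FR1, without FR1 replicate 1 (351) or 2 (355), FR2 replicate 1 (253) or 2 (522), or FR3 Klrg1- replicate 3 or 4 (1331 each). It did so in FR3 Klrg1- against FR2 without FR2 replicate 1 (302) or 2 (521) or FR3 Klrg1- replicate 1 (312) or 2 (414), in FR3 Klrg1- against FR1 without FR1 replicate 2 (1007) or FR3 Klrg1- replicate 1 (990) or 2 (910), and with Klrg1 without FR3 Klrg1- replicate 4 (1553). Without FR3 Klrg1- replicate 3 or 4, the second set keeps 1 array of each FR3 group and adds nothing to the estimated spread. FR2 against FR1 then gave the 1331 genes of the first set alone. The causes of the other shifts were not tested, beyond the fewer arrays or other genes that each setting leaves.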

Other observations

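The array placed in no group, titled FR3 with the CD62Lhi CD69- Klrg1- markers of FR1, correlated at 0.973 to 0.975 with the arrays of the second set and at 0.904 to 0.917 with those of the first. Satb1 stood at 9.61 on it, Lef1 at 8.78, Bach2 at 6.69, Foxp1 at 8.10, Id3 at 6.36 and Myb at 7.21. On the FR3 Klrg1+ array these were 9.81, 8.88, 6.70, 7.96, 6.47 and 6.84. Klrg1 stood at 12.41 on the ungrouped array, against 12.33 in FR3 Klrg1+ and 7.27 to 7.47 in FR3 Klrg1- of the second set. Id2 was at 10.27 on both, Prdm1 at 9.14 on both, and Cxcr5 at 5.66 and 5.28. The labels do not settle which cells this array holds, and it was used in no comparison.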
